A study of Rattus norvegicus with 2 samples.

Results

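Interleukins and other inflammatory cytokines of the rat carotid artery were followed as 9 genes chosen by symbol: Il6, Lif, Il11, Il1a, Il1b, Il33, Il1r1, Tnf and Csf1. All 9 were among the 32623 genes listed in the deposited count matrix, and 8 of them had at least 1 UMI (a unique molecular identifier, which marks 1 captured transcript) in a kept cell. Single-cell RNA was measured on the 10x Genomics platform in 2 libraries of male SD (Sprague-Dawley) rats. The control library held the left common carotid arteries, which had no treatment, and the case library held the right common carotid arteries of the same animals, taken 28 days after balloon injury. Each library combined the arteries of 2 rats, and the labels give an age of 12 weeks for both. With 1 pooled library a group there was no replicate and no test between groups, and the control artery came from animals that had undergone surgery on the other side.

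Cytokines are secreted proteins that cells use to call in, activate or restrain immune cells and to signal to their neighbours. IL-6, LIF and IL-11 bind receptors that share the signal transducer gp130 (Il6st), IL-1 alpha and IL-1 beta act through the receptor Il1r1 and NF-kB, IL-33 is a nuclear alarmin that binds ST2 (Il1rl1), TNF is an early product of activated macrophages, and CSF1 is the growth factor that keeps macrophages alive. In the artery wall, adventitial fibroblasts, vascular smooth muscle cells (VSMCs) and endothelial cells all can make such factors, and transcription of several of them responds within minutes to hours, also to the enzymes and warmth used to free cells from tissue.

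The control library held 3321 barcodes and 24968329 UMIs, and the case library 5656 barcodes and 28232614 UMIs. After filtering, 2742 control and 4930 case cells were kept, with median depths of 8880 and 5156 UMIs. Which barcodes belong to which group rests on the barcode numbers stated in the methods. Each cell was placed in a class by its own marker UMIs, which gave 740 control and 1445 case fibroblast-like cells, 1152 and 2617 VSMC-like cells, 55 and 218 endothelial-like cells, 43 and 110 macrophage-like cells, and 18 and 43 Schwann-like cells. Another 734 control and 497 case cells met no gate or more than 1, and of the kept control cells 513 had fewer than 1000 UMIs, against 40 of the case cells. T cells, B cells, neutrophils and mast cells gave at most 2 cells with 3 markers of their own in either library, so no class was made for them. Each marker counted for a class was found in at least 10% of its cells, but the 10 leading genes of the fibroblast-like class by fold (Apod, Pi16 and C7 first) held none of its markers. A total of 21 barcodes were found in both libraries.

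The 3 members that were lower together in case fibroblast-like cells and have an entry in the RefSeq promoter table are shown first, with the 250 bases before each annotated start (build GRCr8, from RefSeq; the counts were made on Rnor_6.0). Il33 has 2 entries. Sequences run 5′ to 3′ on the strand of the gene, and capitals mark matches to 3 motifs searched on both strands: NF-kB (GGG, any 5 bases, CC), AP-1 (TGANTCA) and C/EBP (TTGCNNAA).
Il6, chr4:5894576-5894825 (- strand): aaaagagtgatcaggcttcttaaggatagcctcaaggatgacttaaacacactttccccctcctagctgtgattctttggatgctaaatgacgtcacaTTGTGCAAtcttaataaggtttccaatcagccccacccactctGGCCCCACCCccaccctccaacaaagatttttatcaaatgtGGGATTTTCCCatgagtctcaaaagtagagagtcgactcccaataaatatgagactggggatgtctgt
Il11, chr1:78098372-78098621 (+ strand): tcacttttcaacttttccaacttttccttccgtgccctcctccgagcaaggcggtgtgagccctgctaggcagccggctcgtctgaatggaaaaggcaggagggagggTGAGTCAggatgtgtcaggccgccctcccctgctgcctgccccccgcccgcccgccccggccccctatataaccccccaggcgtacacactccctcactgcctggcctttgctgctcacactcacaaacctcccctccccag
Il33, upstream start, chr1:237115323-237115572 (+ strand): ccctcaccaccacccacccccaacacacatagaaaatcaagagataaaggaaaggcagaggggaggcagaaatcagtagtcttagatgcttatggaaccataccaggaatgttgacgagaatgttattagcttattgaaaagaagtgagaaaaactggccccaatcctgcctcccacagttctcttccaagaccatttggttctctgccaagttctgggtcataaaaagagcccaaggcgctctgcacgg
Il33, downstream start, chr1:237134696-237134945 (+ strand): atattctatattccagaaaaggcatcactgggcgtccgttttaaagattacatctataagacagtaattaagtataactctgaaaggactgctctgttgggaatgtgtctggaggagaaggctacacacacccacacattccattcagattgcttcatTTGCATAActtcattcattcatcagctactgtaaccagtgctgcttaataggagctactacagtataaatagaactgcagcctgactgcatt
The Il6 window held 3 NF-kB matches, 2 of which overlap, beginning 109, 68 and 67 bases before the start, and 1 C/EBP match beginning 152 bases before it. Il11 held 1 AP-1 match beginning 142 bases before the start, and the downstream Il33 start held 1 C/EBP match. Among 33469 windows of the same length in the table, 42.3% held the NF-kB letters, 6.34% the AP-1 letters and 9.22% the C/EBP letters. Entries were found for 7 members, in 8 windows, and matches were found in 3, 2 and 2 of those windows. A match describes the letters and is not evidence of binding.

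The members divided into 3 patterns of cell class. Il6, Lif, Il33 and Il11 were mainly fibroblast transcripts, Il1b and Il1a were macrophage transcripts, and Csf1 and Il1r1 were spread over several classes. Of the UMIs in cells with a class, the fibroblast-like cells held 96.1% for Il6, 97.1% for Lif, 94.2% for Il33, 79.9% for Il11 and 58.4% for Il1r1. Macrophage-like cells held 98.4% of the 257 Il1b UMIs and all 11 Il1a UMIs. Csf1 was the only member whose UMIs came mostly from VSMC-like cells, at 56.0%, with 38.7% in fibroblast-like cells. Levels are given below as CPM, the UMIs of the gene per 1000000 UMIs of the class, with exact 95% Poisson intervals that cover counting error only.

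**Figure D1:**
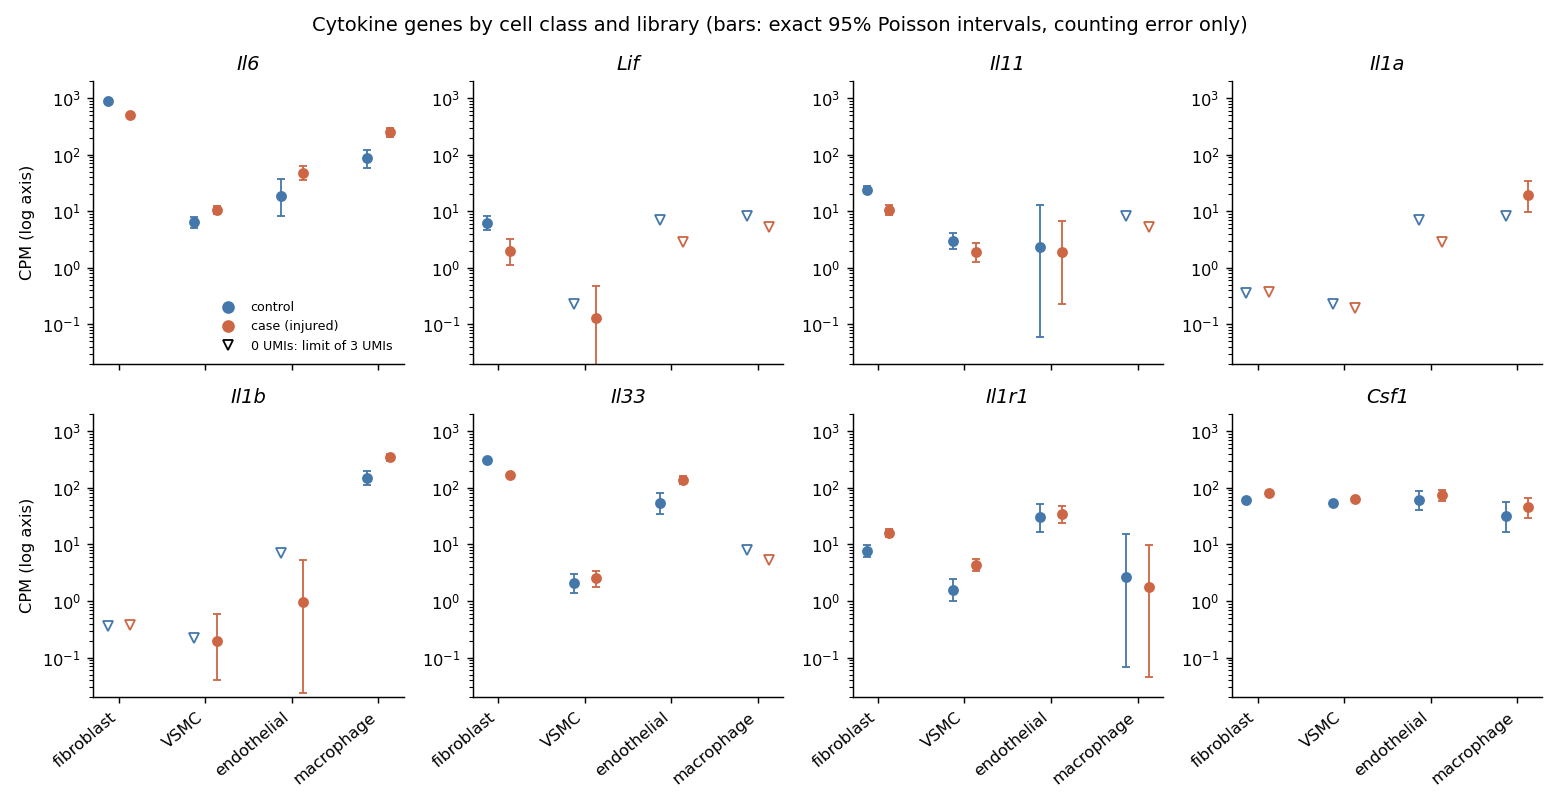
Level of 8 members (CPM, log axis) in 4 cell classes of the control and the case library. Points are sums over cells, bars are exact 95% Poisson intervals, and open triangles mark 0 UMIs at the level that 3 UMIs would give; Il6, Lif, Il11 and Il33 lie higher in control than in case fibroblast-like cells, while Il1b and Il6 lie higher in case than in control macrophage-like cells.

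Il6, the cytokine that drives the acute-phase response, was the member with the most UMIs, 7842 in kept control cells and 4744 in kept case cells. In fibroblast-like cells it stood at 898 CPM (878 to 919) in the control and 510.0 CPM (494 to 526) in the case library, a log2 ratio of case over control of -0.82 (-0.87 to -0.76), or 1.76-fold lower after injury. The 2 intervals do not overlap. The share of fibroblast-like cells with an Il6 UMI, after each cell was thinned to 2000 UMIs, was 37.9% (34.3 to 41.5) in 708 control and 23.9% (21.7 to 26.3) in 1379 case cells, and 32 control and 66 case cells were too shallow to be thinned. Without thinning the shares were 55.8% and 34.7%, at median depths of 11136 and 5185 UMIs.

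Outside fibroblast-like cells, the summed Il6 level was higher in case than in control macrophage-like and endothelial-like cells. Macrophage-like cells had 86.5 CPM (59.2 to 122) in the control and 246 CPM (207 to 291) in the case library, a log2 ratio of 1.51 (0.95 to 2.11). Endothelial-like cells had 18.8 CPM (8.13 to 37.1) and 47.4 CPM (35.2 to 62.5), a log2 ratio of 1.33 (0.24 to 2.62). These level intervals overlap slightly, and the control level rests on 8 UMIs in 7 cells. Thinned to 2000 UMIs, 3.64% (0.443 to 12.5) of control and 6.22% (3.35 to 10.4) of case endothelial-like cells had an Il6 UMI, with overlapping intervals. In VSMC-like cells the level was lowest, 6.42 CPM (5.13 to 7.94) and 10.6 CPM (9.004 to 12.4). Among these 4 classes the order of the summed levels was therefore fibroblast, macrophage, endothelial and VSMC in both libraries. Neighbouring intervals do not overlap, although the endothelial and VSMC intervals of the control lie close together. In the control, 24 of the 32 macrophage UMIs were in 1 cell, so the place of macrophage-like above endothelial-like cells there rests on that cell.

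Free RNA can give UMIs in cells that do not express a gene, so Il6 was set against Dcn, an abundant matrix proteoglycan transcript of fibroblasts. Fibroblast-like cells had 60.7 Il6 UMIs per 1000 Dcn UMIs in the control and 43.9 in the case library. VSMC-like cells had 22.7 and 36.4, which is below the fibroblast ratio, so no difference between the libraries is read from their Il6, although the Dcn that VSMC-like cells make themselves was not measured. Thinned to 2000 UMIs, 1.05% of control and 1.42% of case VSMC-like cells had an Il6 UMI. In this measure endothelial-like cells, with 276 and 1042 Il6 UMIs per 1000 Dcn UMIs, and macrophage-like cells, with 2286 and 6087, lay above the fibroblast ratio. These values rest on 29 and 48 Dcn UMIs in endothelial-like and 14 and 23 in macrophage-like cells. Dcn was also a marker of the fibroblast gate, and the gates of the other classes limited fibroblast markers. The gates therefore bear on the ratios to Dcn, for Il6 and for the other members.

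The macrophage Il6 rested on very few cells. All 32 control UMIs were in 4 cells and 24 of them in 1 cell, and all 140 case UMIs were in 12 cells, with 67 and 42 in the highest 2. These cells had 0 Dcn UMIs in both libraries, but 3 control and 2 case cells had UMIs of the collagen gene Col1a1 (5 and 2 in all), and 4 of 4 control and 11 of 12 case cells had a UMI of Tyrobp, a macrophage gene used in the gate. When each cell was thinned to 2000 UMIs the log2 ratio was -0.10, the reverse direction, with equal weight for each cell it was 0.35, under the stricter gate 0.74, and without the highest cell of each library 2.58.

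Lif, a gp130 cytokine known for keeping stem cells undifferentiated, was rare. Fibroblast-like cells held 52 control UMIs in 31 cells and 16 case UMIs in 15 cells, which is 6.17 CPM (4.61 to 8.09) and 1.99 CPM (1.14 to 3.23). The log2 ratio was -1.63 (-2.54 to -0.80), or 3.098-fold lower in the case library. Thinned to 2000 UMIs it was -2.28, and with equal weight for each cell -1.27. The thinned value rests on only 5 control and 2 case cells with a Lif UMI. Their shares, 0.706% (0.230 to 1.64) and 0.145% (0.0176 to 0.523), have overlapping intervals. Apart from 2 UMIs in case VSMC-like cells, Lif had 0 UMIs in the other classes, which allows up to 0.227 CPM in control VSMC-like cells, 8.11 and 5.28 CPM in control and case macrophage-like cells and 7.06 and 2.84 CPM in endothelial-like cells. The upper limits in the small classes are as high as the fibroblast level or nearly so, so Lif was not detectable there at this depth.

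Il11, a gp130 cytokine linked to fibroblast activation and fibrosis, stood at 23.96 CPM (20.8 to 27.5) in control and 10.6 CPM (8.45 to 13.1) in case fibroblast-like cells. The log2 ratio was -1.18 (-1.56 to -0.81), 2.27-fold lower in the case library. Its UMIs came from 59 control cells, 7.97% of the class, and 51 case cells, 3.53%, and thinned to 2000 UMIs the shares were 2.12% (1.19 to 3.47) and 1.02% (0.556 to 1.70), whose intervals overlap. VSMC-like cells held 40 and 29 Il11 UMIs, or 3.02 CPM (2.16 to 4.11) and 1.92 CPM (1.28 to 2.75), and the interval of their log2 ratio of -0.66 (-1.40 to 0.07) includes 0. Per 1000 Dcn UMIs, VSMC-like cells had 10.7 and 6.59 Il11 UMIs, above the 1.62 and 0.911 of fibroblast-like cells.

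Il33, the alarmin stored in nuclei of stromal and endothelial cells, followed Il6 in fibroblast-like cells and went the other way in endothelial-like cells. In fibroblast-like cells it stood at 313 CPM (302 to 326) in the control and 166 CPM (157 to 175) in the case library, a log2 ratio of -0.92 (-1.01 to -0.82). Thinned to 2000 UMIs, 32.3% (28.9 to 35.9) of control and 23.4% (21.2 to 25.7) of case cells had an Il33 UMI. In endothelial-like cells the level was 54.1 CPM (34.3 to 81.2) in the control, from 23 UMIs in 9 cells, and 138 CPM (117 to 163) in the case library, from 146 UMIs in 56 cells, a log2 ratio of 1.35 (0.71 to 2.06). The endothelial intervals do not overlap between libraries. Endothelial-like cells had 793 and 3042 Il33 UMIs per 1000 Dcn UMIs, against 21.2 and 14.3 in fibroblast-like cells, but from only 29 and 48 Dcn UMIs. Macrophage-like cells had 0 Il33 UMIs in both libraries, which allows up to 8.11 CPM in the control and 5.28 CPM in the case library. VSMC-like cells had 2.11 and 2.51 CPM, with a ratio to Dcn (7.48 and 8.63 UMIs per 1000) below that of fibroblast-like cells, so no difference is read there, and thinning to 2000 UMIs turned their log2 ratio from 0.25 to -1.50.

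Il1b, the inflammasome-processed IL-1 of myeloid cells, was found in 13 of 43 control and 24 of 110 case macrophage-like cells. The level was 151 CPM (114 to 197) in the control and 347 CPM (300.02 to 399) in the case library, a log2 ratio of 1.20 (0.76 to 1.65). A few cells carried most of it: 1 control cell held 25 of 56 UMIs and 2 case cells held 66 each of 197. Thinned to 2000 UMIs the share of cells with an Il1b UMI was 14.3% (5.43 to 28.5) in the control and 13.3% (7.49 to 21.4) in the case library, whose intervals overlap, while those of the summed level do not. Without the highest cell of each library the log2 ratio was 1.43, and with all barcodes left unfiltered it was 0.63, under 2-fold. Among the control barcodes that the filters removed, 1 held 29 Il1b UMIs among 11205 UMIs, with 1.13% of them mitochondrial. The ratio past 2-fold therefore rests on the filter, and the part of that barcode was not tested. Fibroblast-like cells had 0 Il1b UMIs in both libraries, which allows up to 0.356 CPM in the control and 0.373 CPM in the case library, and case VSMC-like cells had 3, all in 1 cell.

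Il1a, the IL-1 form that is active without inflammasome processing, had 11 UMIs in 3 case macrophage-like cells, 7 of them in 1 cell, and 0 in control macrophage-like cells. The case level was 19.4 CPM (9.67 to 34.6), and 3 UMIs would give 8.11 CPM in the control class. The case point estimate is 2.39-fold that value, which is not a lower bound, since the counting interval of the log2 ratio has a lower limit of 0.71. A control barcode removed by the filters held 6 Il1a and 29 Il1b UMIs among 11205 UMIs, so the 0 in the control class rests on that filter. Case cells with Il1b and those without it held 7 and 4 of the 11 UMIs. With so few cells, these values describe single cells rather than the class.

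Il1r1, the signalling receptor for both IL-1 forms, was higher in the case library in fibroblast-like and VSMC-like cells. Fibroblast-like cells stood at 7.71 CPM (5.95 to 9.83) and 16.1 CPM (13.4 to 19.1), a log2 ratio of 1.06 (0.62 to 1.51). VSMC-like cells stood at 1.59 CPM (0.982 to 2.42) and 4.36 CPM (3.38 to 5.55), a log2 ratio of 1.46 (0.73 to 2.24). In neither class did the intervals of the 2 libraries overlap. Within fibroblast-like cells, however, they overlapped in every bin of the marker Pi16 described below. The part of the make-up of the fibroblast-like class in its ratio was not tested. Most VSMC-like cells came from different clusters in each library, with 71.4% of control cells in cluster 4 and most case cells in clusters 1 and 2, which holds for Csf1 in this class as well. Among the 4 large classes endothelial-like cells had the highest Il1r1 level in both libraries, 30.6 CPM (16.3 to 52.3) and 34.1 CPM (23.9 to 47.3), with a log2 ratio of 0.16 (-0.79 to 1.20) whose interval includes 0. Most positive cells had a single UMI, and the thinned share of fibroblast-like cells was 2.26% (1.30 to 3.64) in the control and 3.05% (2.20 to 4.09) in the case library, which overlap. Thinned sums gave a log2 ratio of 0.54 in fibroblast-like cells, under 2-fold. In macrophage-like cells 1 UMI was found in each library.

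Tnf, the founding member of its cytokine family, had 0 UMIs in all barcodes of both libraries, filtered or not. Over kept cells this allows up to 0.125 CPM in the control and 0.111 CPM in the case library, and within macrophage-like cells, the class that would be looked to first, up to 8.11 and 5.28 CPM. Tnf was thus not detectable at this depth, in a class where Il1b was found in 13 of 43 control and 24 of 110 case cells.

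Csf1, the macrophage growth factor, was found in fibroblast-like, VSMC-like and endothelial-like cells of both libraries. In the control library it stood at 61.0 CPM (55.8 to 66.5) in fibroblast-like, 55.0 CPM (51.1 to 59.2) in VSMC-like and 61.2 CPM (40.0 to 89.7) in endothelial-like cells, which overlap with one another, and at 32.4 CPM (16.8 to 56.7) in macrophage-like cells. In the case library the levels were 82.5 CPM (76.4 to 89.0), 64.5 CPM (60.6 to 68.7), 74.0 CPM (58.5 to 92.3) and 45.8 CPM (29.9 to 67.1), and the fibroblast and VSMC intervals no longer overlap. The case level was higher in all 4 classes, by a log2 ratio of 0.44 (0.27 to 0.61) in fibroblast-like and 0.23 (0.09 to 0.37) in VSMC-like cells, while in macrophage-like cells the value was 0.50 (-0.54 to 1.62) and in endothelial-like cells 0.27 (-0.38 to 0.97), both with intervals that include 0. With classes from clusters the macrophage value was -0.024. Without thinning, a smaller share of case than of control fibroblast-like cells had a Csf1 UMI (29.6% against 39.6%), but thinned to 2000 UMIs the shares were 13.7% (11.9 to 15.6) and 11.3% (9.06 to 13.9), with the order turned and the intervals overlapping. The 4 and 17 UMIs in Schwann-like cells came from 2 and 5 cells.

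**Figure D2:**
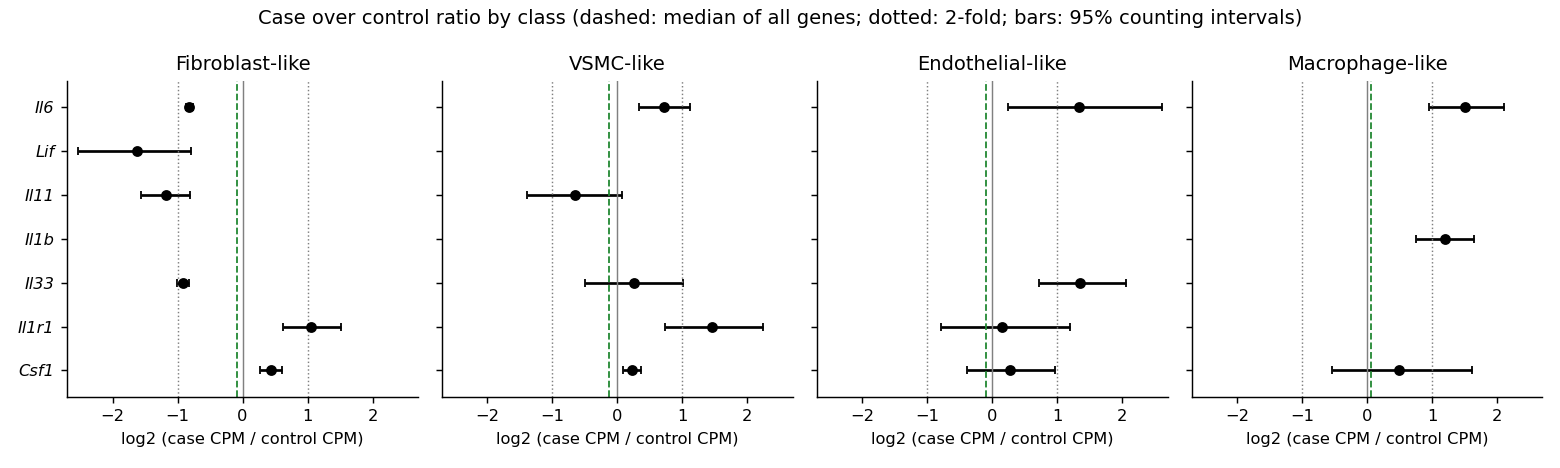
Log2 ratio of case over control CPM for the members with at least 30 UMIs in a class. Points are ratios of sums over cells, bars are exact 95% counting intervals, the dashed line is the median of all genes of the class and dotted lines are 2-fold; in fibroblast-like cells Il6, Lif, Il11 and Il33 lie left of 0 and Il1r1 and Csf1 right of it.

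Members past 2-fold were counted beside all genes of each class. In fibroblast-like cells 2 of 6 members with at least 30 UMIs (Lif and Il11) were more than 2-fold lower, where 4.19% of 10109 genes were, and 1 (Il1r1) was more than 2-fold higher, where 2.96% were. The median log2 ratio of the 6 members was -0.87, beside -0.09 over all genes of the class. In VSMC-like cells 1 of 5 (Il1r1) was higher past 2-fold, beside 2.34% of 11137 genes, and 0 were lower, beside 3.97%. In endothelial-like cells 2 of 4 (Il6 and Il33) were higher, beside 10.2% of 4878 genes, and 0 lower, beside 11.2%. The limit of 30 UMIs was set on both libraries together. All 4 endothelial members (8 control UMIs for Il6, 23 for Il33, 13 for Il1r1 and 26 for Csf1) reached it only through the case library. So did Il1r1 in VSMC-like cells, with 21 control UMIs. Lif in fibroblast-like cells, with 16 case UMIs, reached it only through the control. No result is read from the counts of these members. In macrophage-like cells 2 of 3 (Il6 and Il1b) were higher, beside 7.46% of 3365 genes, and 0 lower, beside 4.22%. Neither call was stable there: with all barcodes left unfiltered Il1b was at 0.63, and thinned to 2000 UMIs Il6 was at -0.10. With classes taken from clusters Il33 in endothelial-like cells was at 0.995, just under 2-fold. Scaling by TMM (edgeR) moved all log2 ratios up by 0.24 in endothelial-like and 0.12 in VSMC-like cells, by 0.06 in fibroblast-like and by 0.01 in macrophage-like cells, and changed the direction of no member with at least 30 UMIs.

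Fibroblast-like cells shared the cytokine UMIs unequally. The 74 control and 145 case cells with the most Il6, 10% of the class, held 66.4% and 77.7% of its UMIs, and 44 and 52 cells held the upper 50 percent of them. For Il33 the shares were 60.0% and 55.4%, and for Csf1 50.2% and 57.3%. The highest single cells had 245 and 150 Il6 UMIs and 163 and 52 Il33 UMIs. No cell had more than 3 Il1r1 UMIs. The cells were ranked on UMIs without thinning, at median depths of 11136 UMIs in the control and 5185 UMIs in the case library. Positive cells had a median of only 1 Csf1 UMI in both libraries, and of 6 and 3 Il6 UMIs. The part of depth and of sparse counts in these shares was not tested, so no difference between the libraries is read from them.

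**Figure D3:**
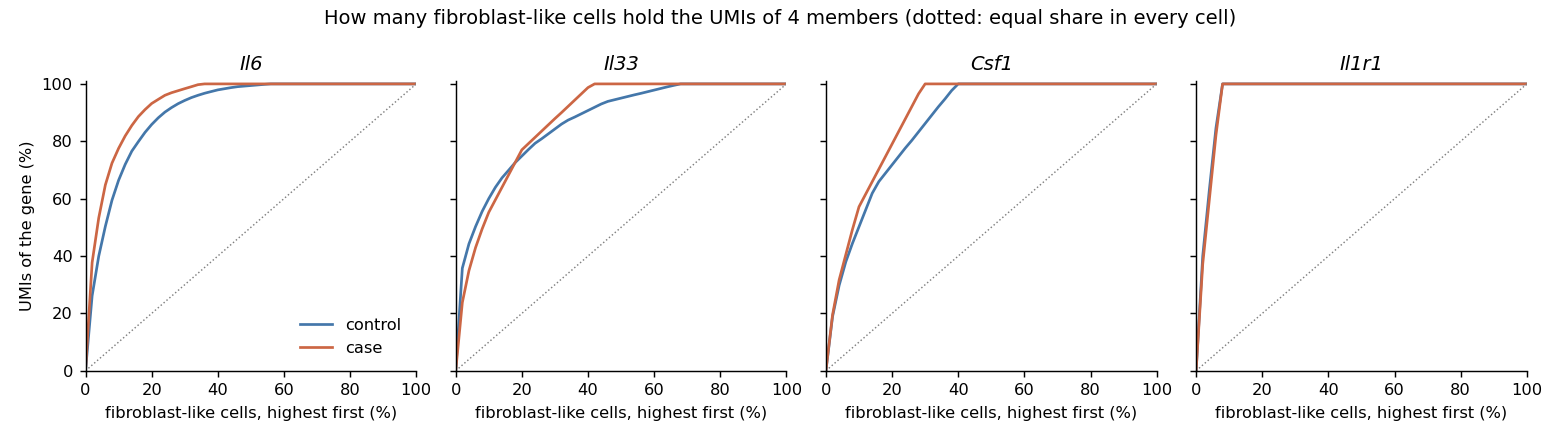
Share of the UMIs of Il6, Il33, Csf1 and Il1r1 (percent) held by fibroblast-like cells ranked from the highest, in the control and the case library; the dotted line is an equal share in every cell. The curves of Il6 rise steeply, with 66.4% of control and 77.7% of case UMIs in the first 10% of cells, and the Il1r1 curves reach 100% within the first 10% because few cells had any UMI. Cells were not thinned, and control cells were deeper.

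Il6 was higher in fibroblast-like cells that also held its relatives Lif or Il11 than in the others. Control cells with a Lif UMI had 2087 CPM (1967 to 2213) of Il6, against 817 CPM (797 to 837) in those without, and in the case library the levels were 3392 CPM (3074 to 3733) and 465 CPM (450.3 to 480.5). Cells with Lif numbered only 31 in the control and 15 in the case library, with Il6 in 27 and 10 of them. Those with Il11 numbered 59 and 51. The intervals cover counting error and not the spread between cells. Cells with an Il11 UMI had 1894 CPM (1804 to 1986) of Il6 in the control and 1125 CPM (1020 to 1238) in the case library, against 782 CPM (762 to 802) and 480.1 CPM (464.7 to 495.9) in those without. The cells with Lif or Il11 were deeper (median 17165 and 14986 UMIs in the control, 8146 and 6936 in the case library), and the part of depth in this was not tested. Il33 showed no such distance, since cells with Il33 had 916 CPM of Il6 in the control and 492 CPM in the case library, those without 845 and 525 CPM. Higher Il6 was not particular to cells with Lif or Il11. Cells with Csf1 had 984 CPM (953 to 1016) and 580 CPM (553 to 609), those without 827 CPM (801 to 854) and 471 CPM (453 to 491). Cells with Il1r1 had 1337 CPM against 859 CPM in the control, but 454 CPM against 516 CPM in the case library. In case macrophage-like cells, 135 of the 140 Il6 UMIs were in the 24 cells with Il1b, but in the control 6 of 32 were in the 13 cells with Il1b.

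Within fibroblast-like cells the members followed Gfpt2, an enzyme of the hexosamine pathway, and Pi16, a marker of adventitial progenitor-like fibroblasts, in different ways. Il6 was higher at each step of Gfpt2: 251 CPM in control cells with 0 UMIs of Gfpt2, 501 CPM in those under 8 per 10000 UMIs, 1128 CPM from 8 to 32 and 1501 CPM at 32 and over. The case levels in the same bins were 171, 339, 490.3 and 937 CPM, lower than the control in all 4 bins with no overlap of intervals. Each bin held 146 to 411 cells. Median depth rose along the same bins, from 6513.5 to 15260 UMIs in the control and from 3732 to 6553 UMIs in the case library. The part of depth in these steps was not tested. Lif in the control was also highest in the top bin, at 13.8 CPM against 1.71 CPM in cells with 0 Gfpt2.

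Il33 was higher at each step of Pi16, in bins with median depths of 9679 to 12075.5 UMIs in the control and 4640 to 5780 UMIs in the case library. In the control it stood at 149, 178, 257 and 679 CPM over the 4 bins of Pi16, and in the case library at 114, 149, 176 and 522 CPM. Neighbouring intervals overlap for the lower 2 bins of the control and the middle 2 of the case library. The top bin lies apart from the others in both. Over the Gfpt2 bins control Il33 was at 237, 247, 207 and 552 CPM, also highest in the top bin, and case Il33 at 160, 177, 148 and 178 CPM. The highest Pi16 bin held 167 of 740 control but only 96 of 1445 case cells, while cells with 0 Pi16 numbered 98 and 653. Il33 was lower in the case library in every bin of Pi16, though the intervals overlap in the lower 2 bins, and the make-up of the class moved along with its level. The part of this make-up in the class-wide ratio was not tested. Il6 did not follow Pi16 in order: its control level was highest, 1316 CPM, in cells under 8 per 10000 and lowest, 468 CPM, in the highest bin, and in the bin from 8 to 32 both libraries were alike (833 CPM, 803 to 865, and 814 CPM, 774 to 855). Il1r1 was highest in cells with 0 Pi16. It stood there at 17.9 CPM (10.4 to 28.6) in the control and 21.9 CPM (17.1 to 27.5) in the case library. In the highest bin it stood at 3.88 CPM (1.56 to 8.002) and 1.88 CPM (0.0477 to 10.5). These levels rest on only 7 control UMIs and 1 case UMI. Their intervals overlap those of both middle bins in the control and that of the bin from 8 to 32 in the case library. No steady fall over the bins is therefore read. Between the libraries the Il1r1 intervals overlap in every bin of Pi16, and the case level is the lower one in the highest bin. Over the Gfpt2 bins they overlap only in cells with 0 Gfpt2. The part of the make-up of the class in the Il1r1 ratio was not tested either.

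**Figure D4:**
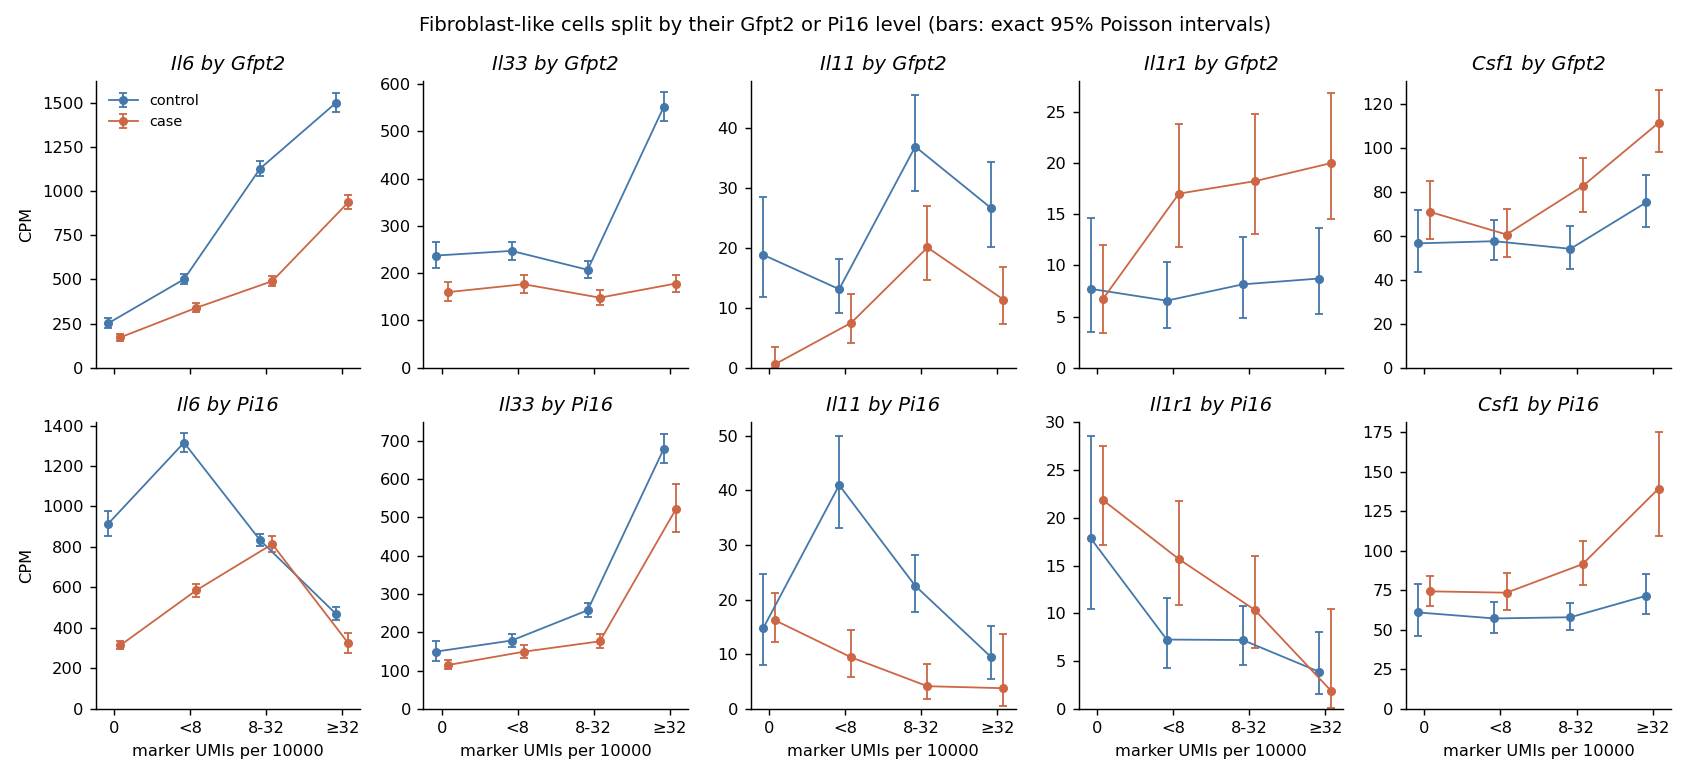
Level (CPM) of 5 members in fibroblast-like cells split by their Gfpt2 (top) or Pi16 (bottom) UMIs per 10000, for the control and the case library, with exact 95% Poisson intervals. Il6 is higher at each step of Gfpt2 in both libraries, as is median depth. Il33 is highest in the top bin of Pi16 (679 CPM in the control, 522 CPM in the case library) and Il1r1 is lowest there, from 7 control UMIs and 1 case UMI.

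Postn, a matrix gene of activated fibroblasts, was found in 61 control and 294 case fibroblast-like cells. In the case library, cells with Postn had 264 CPM (241 to 288) of Il6, against 587 CPM (568 to 606) in those without. Case Il1r1 stood at 23.1 CPM (16.7 to 30.9) with and 13.9 CPM (11.1 to 17.2) without Postn, and these intervals overlap slightly. Control Il1r1 stood at 6.91 CPM (2.24 to 16.1) with Postn, from 5 UMIs, and 7.79 CPM (5.94 to 10.0) without. In the control the Il6 levels were 808 CPM (744 to 877) with and 907 CPM (886 to 928) without Postn. Case cells without Postn still had less Il6 than control cells without it.

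In the joint clustering 76.4% of control fibroblast-like cells were in cluster 3, while 49.3% of case cells were in cluster 5 and 656 of 1445 in cluster 3. Within cluster 3 Il6 was at 948 CPM (925 to 972) in 565 control and 713 CPM (687 to 741) in 656 case cells, and within cluster 5 at 816 CPM (771 to 864) in 118 control and 341 CPM (323 to 360) in 713 case cells. Il33 was at 220.1 CPM (209 to 232) and 157 CPM (145 to 170) in cluster 3, and at 759 CPM (715 to 804) and 182 CPM (169 to 196) in cluster 5. Il1r1 was at 5.89 and 10.4 CPM in cluster 3 and at 16.9 and 22.5 CPM in cluster 5, and Il11 at 26.7 and 14.5 CPM and at 10.1 and 7.40 CPM. These 4 members lay in the same direction in each cluster as in the whole class. The intervals of Il1r1 overlap in both clusters, however (4.19 to 8.05 and 7.41 to 14.1 in cluster 3), and those of Il11 overlap in cluster 5. Csf1 was higher in the case library in cluster 3 (56.6 and 76.5 CPM) but not in cluster 5, where it stood at 87.8 CPM (73.4 to 104) in the control and 83.0 CPM (74.2 to 92.5) in the case library.

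In VSMC-like cells Csf1 was described by Spp1 (osteopontin, a gene of synthetic VSMCs) and Notch1. Cells with Spp1 had 55.9 CPM (51.7 to 60.5) of Csf1 in the control and 69.2 CPM (64.1 to 74.7) in the case library, against 49.8 CPM (40.3 to 60.8) and 56.3 CPM (50.2 to 62.9) in cells without. Cells with Notch1 had 62.8 CPM (56.5 to 69.6) and 76.9 CPM (69.2 to 85.1), against 49.0 CPM (44.1 to 54.3) and 58.8 CPM (54.2 to 63.7) in cells without. For Notch1 the intervals of cells with and without do not overlap in either library, and cells with a UMI of either gene were deeper. Il1r1 was higher in the case library in VSMC-like cells with Spp1 (1.59 CPM, 0.941 to 2.51, and 4.57 CPM, 3.32 to 6.13). In those without Spp1 it stood at 1.57 CPM (0.324 to 4.59) from 3 control UMIs and 4.01 CPM (2.51 to 6.07) from 22 case UMIs. These intervals overlap.

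Endothelial-like cells were split by Plvap and Emcn, genes of fenestrated or capillary and venous endothelium, the second of which also served as a marker of the class. Case cells with either gene had 302 CPM (252 to 359) of Il33 from 128 UMIs in 45 of 93 cells, and those without had 28.5 CPM (16.9 to 45.1) from 18 UMIs in 11 of 125 cells. In the control the levels were 103 CPM (47.2 to 196) in 12 cells with either gene, too few for a firm level, and 41.5 CPM (22.7 to 69.6) in 43 cells without. Cells with either gene were 93 of 218 in the case and 12 of 55 in the control class, and among cells without them the Il33 intervals of the libraries overlap. What this shift contributed to the class-wide ratio was not tested. Case Il6 lay the other way, with 71.3 CPM (52.0 to 95.4) in case cells without either gene and 11.8 CPM (3.83 to 27.6) in those with, while the control had 14.8 CPM (4.81 to 34.6) without and 34.4 CPM (7.09 to 100.5) with, from 5 and 3 UMIs.

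The members' receptors, relatives and targets were described from lists of symbols, in which a gene was counted with at least 30 UMIs in a class. Among all genes of the fibroblast-like class 2.96% were past 2-fold higher and 4.19% lower. The shares were 2.34% and 3.97% in VSMC-like cells, and 10.2% and 11.2% in endothelial-like cells. The counts below stand beside these shares. Of 14 genes of the IL-6 family, 11 had at least 30 UMIs in fibroblast-like cells, 0 passed 2-fold in either direction, and their median log2 ratio was -0.12, close to the -0.09 of all genes. The furthest were Il11ra1, the receptor chain for IL-11, at -0.97 (-1.12 to -0.83) with 135 and 68.6 CPM, and Il6r at 0.69 (0.28 to 1.11). The shared transducer Il6st stood at 76.4 and 70.3 CPM, and the feedback inhibitor Socs3 at 7.71 and 7.96 CPM. In VSMC-like cells 12 genes of the list were counted and 1, the gp130 cytokine Ctf1, was lower past 2-fold (16.9 and 8.27 CPM), and in endothelial-like cells 1 of 5, Il11ra1, was.

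Of 20 listed genes of the IL-1 family, 13 had at least 30 UMIs in fibroblast-like cells, 3 were more than 2-fold higher and 0 lower. The genes past 2-fold were all receptors: Il1rl1, the IL-33 receptor ST2, at 6.41 and 106 CPM with a log2 ratio of 4.04 (3.64 to 4.47), Il18r1, the IL-18 receptor chain, at 0.356 and 8.71 CPM, and Il1rl2, the IL-36 receptor, at 1.07 and 2.86 CPM. The control level of Il18r1 is that of 3 UMIs, the count used as the limit for a level of 0, so its ratio is uncertain. Il1rl1 was found in 5 control cells, 1 of which held 50 of the 54 UMIs, and in 104 case cells with 848 UMIs, 88 of them in the highest. The receptor for IL-33 was thus higher, and Il33 lower, in the same class of the case library. In VSMC-like cells Il1rl1 was lower, 4.30 and 1.52 CPM, but 50 of the 57 control UMIs were in 1 cell. The decoy receptor Il1r2, at 12.1 and 8.96 CPM in fibroblast-like cells, and the adaptor Myd88, at 68.1 and 80.4 CPM, stayed within 2-fold. In macrophage-like cells the antagonist Il1rn stood at 289 and 442 CPM, a log2 ratio of 0.61 (0.28 to 0.95).

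The TNF family had 14 of 18 genes with at least 30 UMIs in fibroblast-like cells, 1 higher and 2 lower past 2-fold. The receptor Tnfrsf1b stood at 14.8 and 30.0 CPM, and was past 2-fold higher also in VSMC-like (1.81 and 4.17 CPM) and endothelial-like cells (18.8 and 45.5 CPM). Tnfsf15 (9.49 and 4.60 CPM) and the adaptor Tradd (6.76 and 3.24 CPM) were lower, and Tradd was also lower in VSMC-like cells (7.93 and 2.58 CPM). The main TNF receptor Tnfrsf1a was at 60.9 and 55.4 CPM in fibroblast-like cells, so both receptors were measured while Tnf was not detectable. Among the colony stimulating factors, Csf1r, which also served as a macrophage marker, stood at 527 and 785 CPM in macrophage-like cells, a log2 ratio of 0.57 (0.33 to 0.82), Il34, the other ligand of that receptor, had 23 and 12 UMIs in fibroblast-like cells, and Csf2ra was the 1 gene of the list more than 2-fold lower there, with 23 and 10 UMIs. Of the other interleukins and receptors, 8 of 28 listed genes reached 30 UMIs in fibroblast-like cells and 0 passed 2-fold. Il12b in macrophage-like cells had 31 control UMIs, all in 1 cell, and 0 case UMIs.

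Genes of the NF-kB pathway and its feedback targets mostly lay lower in case than in control fibroblast-like cells. All 15 of the list had at least 30 UMIs, with a median log2 ratio of -0.58 beside -0.09 for all genes, 2 past 2-fold lower and 0 higher. Cebpd, a C/EBP factor that acts on the Il6 promoter, was at 591 and 225 CPM with a log2 ratio of -1.39 (-1.47 to -1.32), and the NF-kB inhibitor Tnfaip3 at 10.3 and 4.36 CPM. Cebpb was at 1690 and 940.1 CPM, Nfkb1 at 256 and 159 CPM, Ptgs2 (COX-2) at 4306 and 2888 CPM and Tnfaip6 at 5888 and 3351 CPM. The same list had a median of -0.04 in macrophage-like, 0.12 in VSMC-like and -0.02 in endothelial-like cells, beside medians of all genes of 0.07, -0.14 and -0.09.

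**Figure D5:**
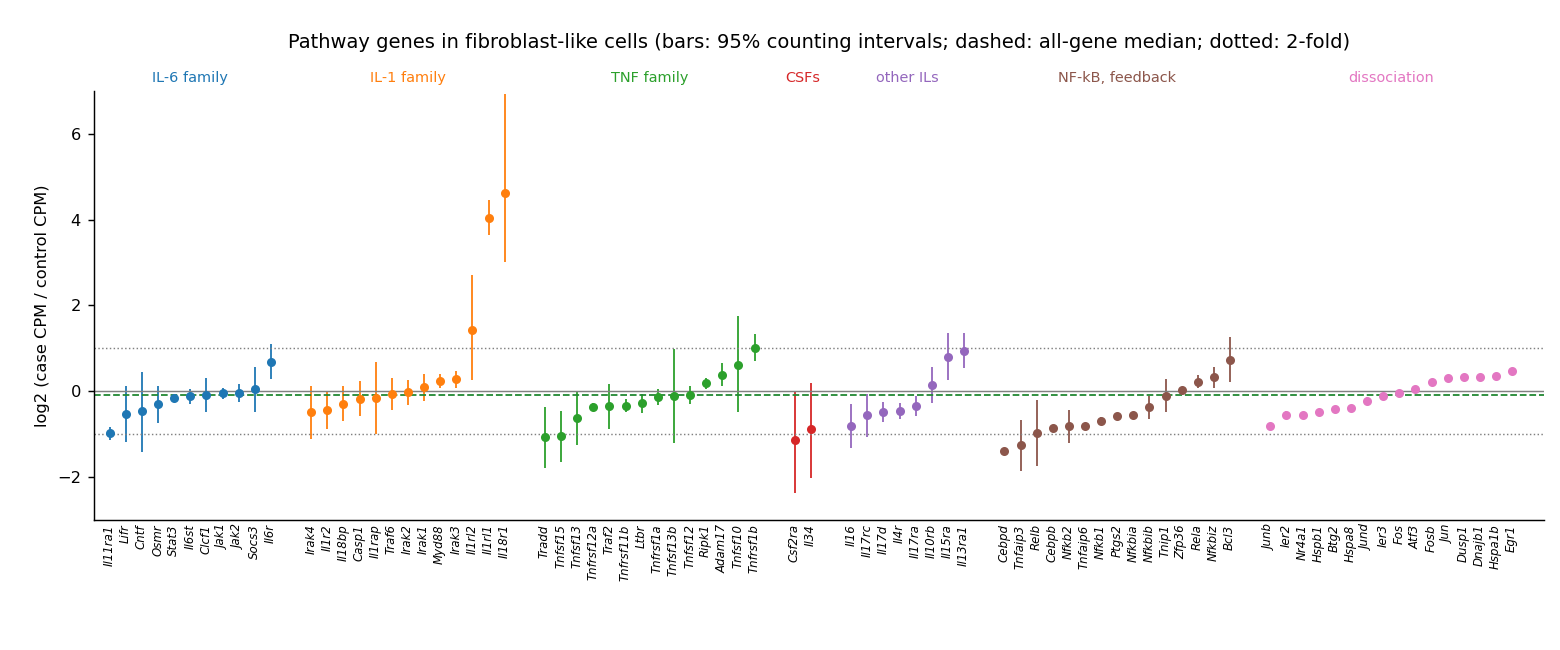
Log2 ratio of case over control CPM in fibroblast-like cells for listed pathway genes with at least 30 UMIs, by list, each gene with its 95% counting interval; the dashed line is the median of all genes and dotted lines are 2-fold. Il1rl1 (4.04) and Il18r1 stand far above the others, the second from a control level of 3 UMIs, and most NF-kB and feedback genes lie below 0.

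Genes known to respond to tissue dissociation were examined beside these values, since Il6 and its relatives can be induced while cells are freed. In fibroblast-like cells 0 of 16 passed 2-fold and their median log2 ratio was -0.08, with Fos at 1483 and 1441 CPM, Atf3 at 562 and 581 CPM and Junb at 1058 and 608 CPM. In VSMC-like cells the median was -0.21 and in macrophage-like cells -0.12. In endothelial-like cells the median was -0.70, beside -0.09 over all genes of the class. There 3 of 16 genes were past 2-fold lower, beside 11.2% of all genes, among them Fos at 4842 and 2044 CPM. The part of dissociation in the level of any member was not tested.

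The genes closest in pattern to a member were those with the highest Pearson r of log2(CPM + 1) over the 7 sums of class and library with at least 50 cells, among 10534 genes with at least 100 UMIs. The points share libraries and depth, so r is a description. For Il6 they were Etnk1 (r = 0.987), Cebpg (0.987), a C/EBP family factor, and Il17ra (0.986), the IL-17 receptor. For Il33 they were Cdc42ep2 (0.993), Nhsl1 (0.989) and LOC100363469 (0.984), for Il11 Pdgfrl (0.986), Arf4 (0.984) and Cry2 (0.978), and for Csf1 Ddx5 (0.975), Ammecr1l (0.969) and Fut4 (0.962). For Il1b they were the myeloid genes Tbxas1, Mcoln2 and Cybb (r of 0.997 or more), and only 1 of the 7 sums was of macrophages. For Il1r1 they were Vault, RNase_MRP and Lepr (0.986 to 0.989).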

How the data were processed

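The authors deposited 1 matrix of raw UMI counts over the barcodes of both libraries, made with Cell Ranger 3.1.0 on Rnor_6.0 as the submitters' processing notes and the file header give. The header does not show whether the libraries were brought to a common depth when they were joined, and libraries were told apart by the barcode suffix. The members and the gene lists were chosen with earlier results of these data known, and the thresholds of the gates were set after the marker levels had been seen, without the members' values.

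Cells were kept with a mitochondrial share of at most 20%, log10 UMIs and genes within 2 SD and genes within 3 robust SD of their fit on UMIs. A class needed at least 3 distinct markers, 1000 UMIs and summed markers of at least 50 (VSMC), 100 (fibroblast), 8 (endothelial), 16 (macrophage) or 8 (Schwann) per 10000 UMIs. Of the fibroblast and VSMC marker UMIs together, fibroblast markers had to make up at least 80% in fibroblast-like and under 50% in VSMC-like cells. A cell with a mixed share between these was placed in neither. Endothelial-like, macrophage-like and Schwann-like cells had to lie below the VSMC and fibroblast thresholds. Counts were summed per class and library and divided by the class total. Intervals are exact at 95% (Poisson for levels, Clopper-Pearson for shares, conditional binomial for ratios) and cover counting error only. Because each group is 1 pooled library, there was no test and no p-value, and a gene was called past 2-fold with at least 30 UMIs in the class. A level at 0 UMIs is limited by 3 counts. Scrublet marked 0.219% of control and 0 case cells, so it did not work here and doublets were left in. The ratio script was tested on simulated data. Clusters came from Leiden at resolution 0.8 on 2000 variable genes, 30 components and 20 neighbours. All 9 members were named. Of the 7 lists, genes past 2-fold in fibroblast-like cells and some with a stated role were named. Further listed genes passed 2-fold in the other classes and were not all named. A total of 10 alternatives were planned for the ratios and 4 were added after seeing the data.

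TMM factors came from edgeR 4.0.16 in R 4.3.3. Clustering used leidenalg 0.10.2 with scanpy 1.11.5, intervals scipy 1.17.1, tables pandas 2.3.3 and numpy 2.4.6, and plots matplotlib 3.10.9, all in Python 3.11.15. Pseudotime was not analysed here.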

Additional observations from a re-analysis of the deposited data

Results flagged for a closer look

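The Il6 ratio of case over control lay below 0 in fibroblast-like cells and above 0 in the other 3 large classes, and the log2 ratios differed from the fibroblast value by 2.15 in endothelial-like, 2.33 in macrophage-like and 1.54 in VSMC-like cells. For Il33 the endothelial-like value, from 23 control UMIs, lay 2.27 above the fibroblast value. The intervals of the thinned shares of endothelial-like cells with Il33 overlap between libraries. These differences were not tested, since each group was 1 library. The macrophage Il6 value reversed when cells were thinned to 2000 UMIs. The endothelial-like Il6 value rests on 8 control UMIs, and the level intervals of the libraries overlap. The VSMC-like Il6 lies below the fibroblast ratio to Dcn, so that no difference is read from it.

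Among the 579 control barcodes removed by the filters, 1 held 6 Il1a UMIs, while kept control cells had 0. That barcode also held 29 Il1b UMIs among 11205 UMIs in all, with 1.13% of them mitochondrial.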

How the results depend on the processing

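No paired analysis was possible because each group was 1 library in which the arteries of the same 2 rats were pooled. Of 98 values of the 7 ratios in a member's leading class under 14 alternatives, 87 stayed within the main counting interval, 11 moved beyond it and 0 reversed. Some of these values were fixed in advance: fibroblast-like and macrophage-like cells held 0 Scrublet doublets, so leaving doublets out could not move their ratios. For Il6 in fibroblast-like cells (main -0.82) the log2 ratio was -0.71 with all barcodes, -0.75 under TMM, -0.74 thinned to 2000 UMIs and -0.75 with equal weight for each cell. For Il33 there (main -0.92) it was -0.72 under the stricter gate, -0.73 thinned and -0.76 with equal weight. Il11 (main -1.18) gave -1.65 under the stricter gate and -1.74 thinned, Il1r1 (main 1.06) gave 0.54 thinned, and Il1b in macrophage-like cells (main 1.20) gave 0.63 with all barcodes. In other classes 6 values reversed: Il6 in macrophage-like cells thinned (-0.10), Csf1 in macrophage-like cells with classes from clusters (-0.024), and Il33 in VSMC-like cells with classes from clusters (-1.58), thinned (-1.50), with equal weight (-2.16) and without the 5% highest Scrublet scores (-1.05, added after seeing the data). The cause was not tested.

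The number of members past 2-fold stayed at 2 or 3 in fibroblast-like cells under every alternative. In VSMC-like cells (main 1) it was 2 with classes from clusters, thinned and with equal weight, and 0 with at least 100 UMIs, which leaves fewer genes. In endothelial-like cells (main 2) it was 1 with classes from clusters and with at least 100 UMIs, and in macrophage-like cells (main 2) it was 1 with all barcodes, classes from clusters, the stricter gate, thinned and with equal weight. The case minus control share of fibroblast-like cells with a UMI, in percentage points, was -21.1 not thinned against -13.9 at 2000 UMIs for Il6, -26.5 not thinned and -2.85 thinned to 1000 UMIs against -8.92 for Il33, and -9.98 not thinned against 2.41 for Csf1. The leading class was the same for 8 of 8 members under all 14, although TMM scaling keeps the UMI counts and so could not change it. Depth limits Lif and Il1a, and the 43 control macrophage-like cells limit Il1b.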

Other observations

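Cells that met no gate held part of the members' UMIs. Of UMIs in kept cells, they held 3.47% for Il6, 6.82% for Il33, 7.78% for Csf1 and 12.0% for Il1b, at median depths of 684 UMIs in the control and 3161 UMIs in the case library. Case Schwann-like cells, 43 in number, had 66.4 CPM (30.3 to 126) of Il33 from 9 UMIs in 4 cells and 125 CPM (73.0 to 201) of Csf1 from 17 UMIs in 5 cells, and the 18 control cells had 1 and 4 UMIs.

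In case macrophage-like cells Csf1 stood at 95.9 CPM (51.1 to 164) in the 24 cells with Il1b and 30.0 CPM (16.002 to 51.4) in the 86 without, with overlapping intervals. In the control, 9 of 12 Csf1 UMIs were in the 13 cells with Il1b.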
